A study of Mus musculus with 6 samples.

Results

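The genes described here are 10 members of the WNT signalling pathway in the mouse uterine luminal epithelium: the ligands Wnt4, Wnt5a, Wnt7a, Wnt7b and Wnt11, the receptors Ror2, Fzd5, Fzd6 and Lgr4, and the pathway target Axin2. They were taken by symbol from a table of 24964 genes, and each of the 10 symbols matched 1 row. The luminal epithelium, which faces the uterine lumen and is the first tissue an embryo meets, was collected by laser capture on pregnancy day 4 and its total RNA was sequenced. Of the 6 samples, 3 came from Foxo1f/f females, which carry floxed alleles of the forkhead transcription factor gene Foxo1 and no Cre (Foxo1ff), and 3 from Pgrcre/+Foxo1f/f females (Foxo1dd). The floxed alleles are therefore shared by both groups, while the Foxo1dd females also carried 1 Cre allele at Pgr, the progesterone receptor gene. Cre at that locus acts wherever Pgr is expressed, which includes uterine cells other than the luminal epithelium, and the Pgr genotype thus differs between the groups along with Foxo1. Females were kept with littermates to 8 weeks of age and then mated. The sources used here do not give the age at dissection or the number of animals behind a sample, and p-values measure only the spread between these bioreplicates. The 6 libraries share 1 run and lane label, so no label splits them into batches.

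WNT proteins are secreted ligands that carry a lipid added by the acyltransferase PORCN and are exported by the carrier WLS. A ligand that joins a Frizzled receptor to the co-receptors LRP5 or LRP6 stabilises beta-catenin, which then acts with TCF/LEF factors on target genes such as Axin2, itself a scaffold of the complex that destroys beta-catenin. Other ligands, WNT5A above all, act through the receptor tyrosine kinase ROR2 without beta-catenin, and LGR4 binds R-spondins, which protect Frizzleds from removal. In the uterus, Wnt7a is known as a luminal epithelial ligand needed for gland formation, Wnt4 as a gene of the decidualizing stroma, and the WNT5A and ROR pathway as a guide of the shape of the luminal epithelium at implantation.

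Wnt7a and Wnt7b are the most closely related pair among the ligands studied here, and they moved in opposite directions, so the sequence that separates their reads is shown first. The coding sequences of transcripts Wnt7a-201 and Wnt7b-201 in GENCODE M21, 1050 and 1071 bases long, were identical at 75.5% of aligned positions. Their longest shared run was 23 bases. The window below runs from coding base 577 to 666 of Wnt7a and from 598 to 687 of Wnt7b, holds that run, and covers the codons around the conserved serine that carries the lipid in WNT proteins. Capitals mark the 14 of 90 positions that differ.
Wnt7a: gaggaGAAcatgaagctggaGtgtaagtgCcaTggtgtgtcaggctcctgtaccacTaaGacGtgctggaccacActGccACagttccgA
Wnt7b: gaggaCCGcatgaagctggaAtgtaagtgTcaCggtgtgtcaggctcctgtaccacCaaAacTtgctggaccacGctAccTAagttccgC
A read longer than the shared run differs between these coding sequences at 1 base or more, although the sources used here give neither the read length nor the treatment of reads with several matches.

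Promoter sequence was available for 7 of the 10 genes (Wnt4, Wnt7a, Wnt11, Ror2, Fzd5, Lgr4 and Axin2) from RefSeq on GRCm38.p6, the assembly that mm10 names. The 250 bases before each start were searched on both strands for the FOXO core GTAAACA, for the TCF/LEF motif CTTTGNT and for the progesterone response element, none of which contains another. Among all 32851 such windows, 3.17% held the FOXO core, 16.0% the TCF/LEF motif and 0.387% the progesterone response element. Over the members' windows there was 1 match, a TCF/LEF motif 51 to 45 bases before the upstream start of Wnt11. The window of the other Wnt11 start, chr7:98838595-98838844, held no match. The other searches found none of these letters in these windows, which says nothing about binding elsewhere. Members' windows were rich in G and C, from 55.6% for Lgr4 to 85.2% for Wnt4, against a median of 52.4% over all windows. The upstream window of Wnt11, with the match in capitals, and that of Ror2, the member with the largest rise, are printed 5′ to 3′ in the sense of the gene.
Wnt11, chr7:98834862-98835111, plus strand: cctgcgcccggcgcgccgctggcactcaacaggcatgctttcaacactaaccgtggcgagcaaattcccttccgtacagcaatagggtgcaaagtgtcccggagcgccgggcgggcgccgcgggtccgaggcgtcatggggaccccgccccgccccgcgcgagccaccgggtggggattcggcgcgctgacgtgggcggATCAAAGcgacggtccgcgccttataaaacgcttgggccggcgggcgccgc
Ror2, chr13:53286125-53286374, minus strand: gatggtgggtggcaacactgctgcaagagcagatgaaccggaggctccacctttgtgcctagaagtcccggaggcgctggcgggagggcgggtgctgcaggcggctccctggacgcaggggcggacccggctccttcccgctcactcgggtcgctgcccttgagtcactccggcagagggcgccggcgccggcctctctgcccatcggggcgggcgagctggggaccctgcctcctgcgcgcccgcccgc

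Levels are given in FPKM, which scales reads to gene length and to the size of the library and so allows genes to be compared. Summed over all genes they came to 613186 to 667499 FPKM per Foxo1ff library and 552190 to 564628 FPKM per Foxo1dd library. Foxo1dd 2 stood apart in detection, with 13995 genes above 0 where each of the other samples had 15474 to 16062. Foxo1 itself checked the labels, with 160.0, 118.5 and 110.8 FPKM in the Foxo1ff samples and 1.72, 0.942 and 1.22 in the Foxo1dd samples. Pgr, which holds the Cre, was at 1.64 to 2.44 FPKM in Foxo1ff and 28.3 to 36.2 FPKM in Foxo1dd. Genes whose 6-sample mean reached 1 FPKM, 11427 in all, were tested as log2(FPKM + 1) with limma, and those with an adjusted p (Benjamini-Hochberg, over all of them) under 0.05 are called changed. A positive change means a higher level in Foxo1dd. A gene low in 1 group can reach the minimum through the other group alone. Of tested genes below, listed after their values were seen, Axin2, Notum, Tle2, Sfrp1, Draxin, Lif, Synpo2 and Myl9 had Foxo1ff means under 1 FPKM. Spink1, Prss28, Prss29, Tcf7, Ascl2, Ptprc and Csf1r had Foxo1dd means under 1 FPKM. The log2(FPKM + 1) scale shrinks the changes of low genes, so folds are given as ratios of mean FPKM. Calls were common: 22.2% of tested genes were higher and 34.2% lower in Foxo1dd, 56.4% in all. The median change of all tested genes was -0.15, and -0.01 under median-of-ratios scaling.

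Of the 10 genes, 9 reached the minimum for testing, and 7 of these rose, 1 fell and 1 was not called. The gene that fell was Wnt7b, and those that rose were Wnt5a, Wnt7a, Wnt11, Ror2, Fzd5, Fzd6 and Axin2. Lgr4 was tested and not called, and Wnt4 lay below the minimum. Axin2 reached that minimum only through its Foxo1dd values. For 7 of the tested genes the Foxo1dd values all lay above the Foxo1ff values and for 1 all lay below, patterns seen in 25.3% and 39.0% of all tested genes (64.2% in either direction). The median change of the 9 tested genes was 1.45, beside -0.15 for all genes tested. Since the 10 genes were chosen with results of these data known, their count is not set against the background as evidence. In bulk RNA, a lower level per cell and fewer expressing cells cannot be told apart.

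**Figure D1:**
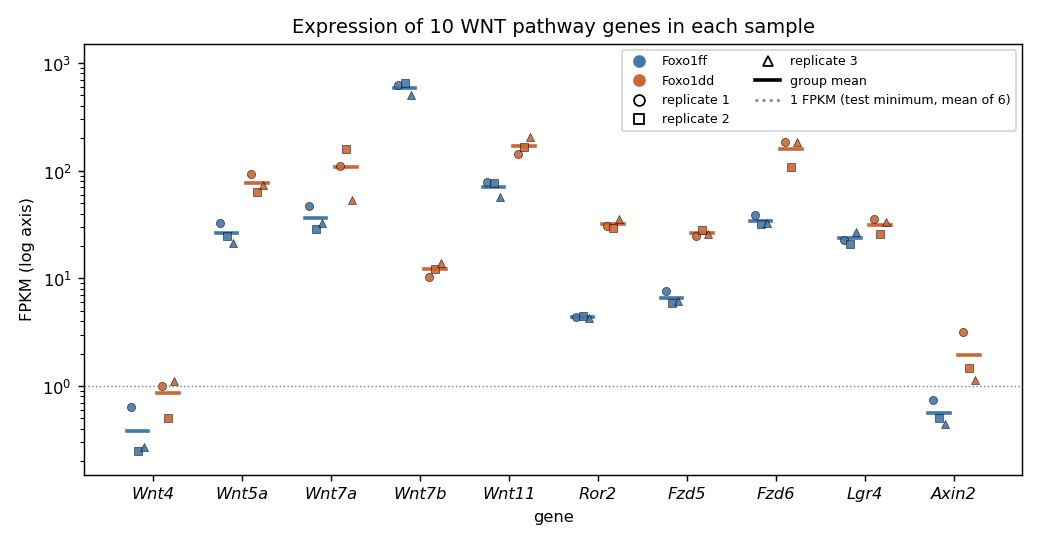
FPKM of the 10 genes on a log axis, with 1 point per sample (blue Foxo1ff, orange Foxo1dd, shape for the replicate number) and a bar at each group mean of 3 samples. Wnt7b lies between 499 and 645 FPKM in Foxo1ff and between 10.2 and 14.0 FPKM in Foxo1dd, while the points of Wnt5a, Wnt7a, Wnt11, Ror2, Fzd5, Fzd6 and Axin2 lie higher in Foxo1dd without overlap and those of Wnt4 and Lgr4 overlap.

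Wnt7b (chromosome 15, 85535437 to 85582473, minus strand, mm10), an epithelial ligand, was the most abundant WNT transcript of the control epithelium. Its level was 625, 645 and 499 FPKM in the Foxo1ff samples and 10.2, 12.2 and 14.0 in the Foxo1dd samples. All Foxo1dd samples lay far below every Foxo1ff sample, and the samples within each group lay close together. The mean was 48.5-fold lower (log2 change -5.49 ± 0.15, SE, n = 3 per group, limma adjusted p = 1.02e-07), the 21st lowest change among the 11427 tested genes. Exons of AU022754 lie opposite 324 of the 4898 exonic bases of Wnt7b, and that gene was at 0.122 to 0.295 FPKM in all 6 samples.

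Of 8 glandular epithelium markers, summing to 52.0 to 210.0 FPKM in the Foxo1ff samples and 1.21 to 6.82 in the Foxo1dd samples, 4 were tested. Spink1 and, named after their values were seen, Prss28 and Prss29 were called lower and Lif higher. Spink1, the highest of them, had 44.2, 57.2 and 178 FPKM in the Foxo1ff samples and 0.307, 0.064 and 0 in the Foxo1dd samples. Foxa2, the transcription factor that defines uterine glands, named after its values were seen, was at 0.643 to 1.36 FPKM in the Foxo1ff samples and 0.399 to 0.908 in the Foxo1dd samples. The part of gland RNA in the fall of Wnt7b was not tested.

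Wnt7a (chromosome 6, 91363981 to 91411363, minus strand), the ligand needed for gland formation, went the other way. It had 47.5, 28.7 and 32.7 FPKM in the Foxo1ff samples and 110.7, 160.5 and 53.6 in the Foxo1dd samples. The groups did not overlap, but Foxo1dd 3 lay close to the highest control sample and the Foxo1dd samples spread more widely than the controls. The mean was 2.98-fold higher (log2 change 1.45 ± 0.35, SE, n = 3 per group, limma adjusted p = 0.00681), and this standard error was the widest of the 9 tested. Within each sample, the FPKM of Wnt7b was 13.2, 22.5 and 15.3 times that of Wnt7a in Foxo1ff. In Foxo1dd, Wnt7a was instead 10.8, 13.1 and 3.83 times Wnt7b. These plain ratios need no scaling between libraries. The log2 ratio of Wnt7b to Wnt7a, taken with 1 FPKM added to each, was 4.01 ± 0.39 in Foxo1ff and -2.93 ± 0.93 in Foxo1dd (SD, n = 3 each; exact two-sided permutation p = 0.1, the smallest that 3 against 3 samples allow).

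Wnt11 (chromosome 7, 98835112 to 98855195, plus strand), a ligand best known for beta-catenin-independent signalling, had 79.1, 77.3 and 56.4 FPKM in the Foxo1ff samples and 142, 164 and 207 in the Foxo1dd samples. Every Foxo1dd sample lay above every Foxo1ff sample. The mean was 2.41-fold higher (log2 change 1.26 ± 0.18, SE, n = 3 per group, limma adjusted p = 0.000321).

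Wnt5a (chromosome 14, 28504750 to 28527448, plus strand), the main ligand of ROR2, had 32.8, 24.7 and 21.2 FPKM in the Foxo1ff samples and 92.8, 62.7 and 73.8 in the Foxo1dd samples. The groups did not overlap, with Foxo1dd 2 the lowest of its group. The mean was 2.91-fold higher (log2 change 1.51 ± 0.19, SE, n = 3 per group, limma adjusted p = 0.000157).

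Wnt4 (chromosome 4, 137277489 to 137299726, plus strand), the ligand known from decidualizing stroma, was listed at 0.634, 0.249 and 0.272 FPKM in the Foxo1ff samples and 0.996, 0.502 and 1.10 in the Foxo1dd samples. The groups overlapped, since Foxo1dd 2 lay below Foxo1ff 1. With a mean of 0.626 FPKM over the 6 samples Wnt4 was not tested. Without a filter its log2 change was 0.43 and its limma adjusted p = 0.0962. From the step between low FPKM values of short RNA genes, Wnt4 stood on about 94 to 393 reads per library, an estimate that uses GENCODE exon lengths and is least sure for Foxo1dd 2.

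Of 15 uterine stroma markers, summing to 39.5 to 46.1 FPKM in the Foxo1ff samples and 43.9 to 64.4 in the Foxo1dd samples, 11 were tested, 3 were called higher (Nr2f2, Col3a1 and Sparc) and 0 lower. Without 1 sample that count of 3 became 0 (Foxo1ff replicate 1 or Foxo1dd replicate 1), 1 (Foxo1ff replicate 2, Foxo1ff replicate 3 or Foxo1dd replicate 3) or 5 (Foxo1dd replicate 2). Pdgfra and Pdgfrb, defining stroma receptors named after their values were seen, stayed at or under 0.696 and 0.288 FPKM. Higher levels were seen for Nr2f2, at 20.7 to 23.3 FPKM in the Foxo1ff samples and 25.0 to 31.4 in the Foxo1dd samples. Means in Foxo1ff and Foxo1dd were 2.86 and 5.35 FPKM for Col3a1 and 1.56 and 2.99 FPKM for Sparc. The remaining 8 tested markers were not called. Wnt4, Wnt5a and the receptor Ror2 are also expressed by stroma, and the part of stroma RNA in their values was not tested.

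The makeup of the ligand pool followed from these changes, and it is given as a description. Of the 19 mouse WNT ligands, 15 lay below the minimum and 4 of these, Wnt1, Wnt3, Wnt8a and Wnt8b, were listed at 0 in every sample. Wnt7b made up 79.4%, 82.9% and 81.5% of the summed ligand FPKM in Foxo1ff and 2.87%, 3.06% and 3.99% in Foxo1dd. In Foxo1dd the largest share was that of Wnt11 in all 3 samples, at 39.6%, 41.0% and 58.9% (Wnt7a held 40.1% in Foxo1dd 2, nearly as much), against 9.20% to 10.1% in Foxo1ff. Wnt7a held 15.3% to 40.1% and Wnt5a 15.7% to 26.0% of the Foxo1dd pool, against 3.69% to 6.03% and 3.17% to 4.17% in Foxo1ff. The summed level went from 726 ± 98.1 to 369.7 ± 27.1 FPKM, while without Wnt7b it went from 136 ± 24.5 to 358 ± 27.3 FPKM (SD, n = 3 each). The rises of the other ligands thus summed to less than the loss of Wnt7b.

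**Figure D2:**
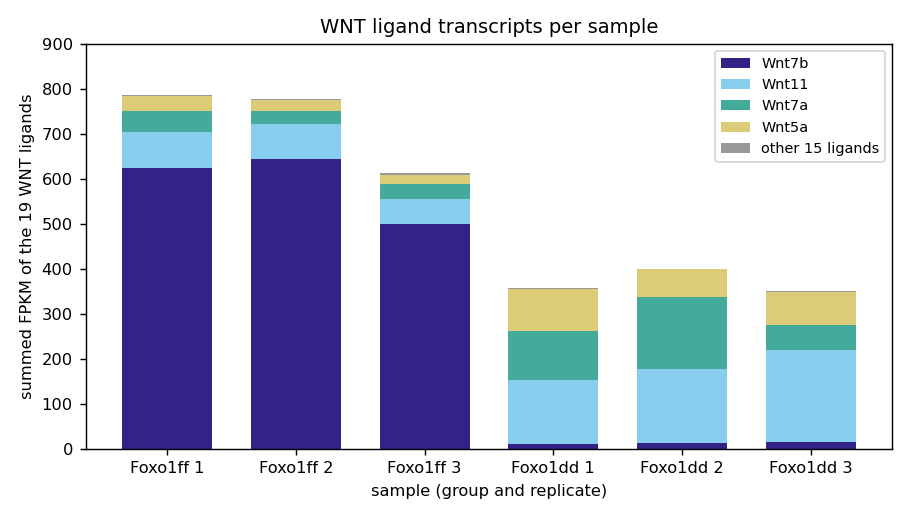
Summed FPKM of the 19 WNT ligands in each sample, stacked by ligand, with the 15 ligands below the minimum pooled. Wnt7b fills 79.4% to 82.9% of the Foxo1ff bars and 2.87% to 3.99% of the Foxo1dd bars, which are shorter as a whole.

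In order of mean level, the ligands among the members ran Wnt7b, Wnt11, Wnt7a, Wnt5a and Wnt4 in Foxo1ff. Wnt7a and Wnt5a were neighbours whose values overlapped between samples, with Wnt7a above Wnt5a within each sample. In Foxo1dd the order was Wnt11, Wnt7a, Wnt5a, Wnt7b and Wnt4. There the values of Wnt11 and Wnt7a overlapped between samples, with Wnt11 above Wnt7a within each sample. Those of Wnt7a and Wnt5a also overlapped, and within Foxo1dd 3 Wnt5a was above Wnt7a. Wnt7b lay below these 3 ligands and above Wnt4 in every sample.

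Among receptors, Ror2 (chromosome 13, 53109312 to 53286124, minus strand), the receptor tyrosine kinase that binds WNT5A, had the largest rise of the 10 genes. It had 4.37, 4.48 and 4.30 FPKM in the Foxo1ff samples and 30.6, 29.2 and 35.3 in the Foxo1dd samples. Its control values were nearly equal and every Foxo1dd value stood well above them. The mean was 7.23-fold higher (log2 change 2.60 ± 0.13, SE, n = 3 per group, limma adjusted p = 1.03e-06). The related receptor Ror1, named after its values were seen, was at 0 to 0.037 FPKM in all 6 samples.

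Fzd6 (chromosome 15, 39006034 to 39038188, plus strand), a Frizzled linked to planar cell polarity, had 38.3, 32.3 and 32.5 FPKM in the Foxo1ff samples and 186, 107.6 and 184 in the Foxo1dd samples. Foxo1dd 2 was lower than the other 2 Foxo1dd samples and still far above the controls. The mean was 4.63-fold higher (log2 change 2.14 ± 0.21, SE, n = 3 per group, limma adjusted p = 3.18e-05).

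Fzd5 (chromosome 1, 64730558 to 64737751, minus strand), a receptor that can pass WNT7A signals to beta-catenin, had 7.63, 5.92 and 6.10 FPKM in the Foxo1ff samples and 24.6, 28.1 and 26.0 in the Foxo1dd samples. Both groups were tight and did not overlap. The mean was 4.00-fold higher (log2 change 1.86 ± 0.14, SE, n = 3 per group, limma adjusted p = 8.49e-06). In GENCODE, exons of Gm38058 lie opposite 1233 of its 6915 exonic bases, the longest such overlap among the 10 genes. Between 152 and 364 bases of Axin2, Fzd6, Wnt5a and Wnt11 also lie opposite exons of other genes, so antisense reads could enter these values if strand was not used.

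The remaining Frizzleds did not move as a family. Of 10 Frizzled genes, 7 were tested, 2 rose (Fzd5 and Fzd6), 2 fell and 3 were not called. Each direction held 28.6% of those tested, beside 22.2% higher and 34.2% lower among all tested genes. Fzd10 fell from 10.5 ± 0.169 to 4.05 ± 1.17 FPKM and Fzd1 from 5.33 ± 0.189 to 2.33 ± 0.110 FPKM (SD, n = 3 each), with log2 changes of -1.22 and -0.93 (limma adjusted p = 0.000605 and 0.000747). Fzd8 stood at 3.92 and 4.11 FPKM with a 95% interval of the log2 change from -0.42 to 0.50, which does not reach the rises of Fzd5 or Fzd6. Fzd3 was at 3.10 and 4.46 FPKM without overlap and was not called (limma adjusted p = 0.0781). The Fzd3 log2 change of 0.42 passed the threshold under median-of-ratios scaling (0.0242), quantile normalization (0.0262), array weights (0.0109) and without Foxo1ff replicate 1 (0.0425). Fzd2 had 7.66, 2.65 and 1.67 FPKM in the Foxo1ff samples and 6.27, 7.16 and 4.66 in the Foxo1dd samples, and the limma adjusted p of the Fzd2 log2 change went from 0.169 to 0.00447 without Foxo1ff replicate 1 and 0.0261 with array weights. Fzd6 was the most abundant Frizzled in every sample. It made up 48.4%, 50.1% and 51.0% of the summed Frizzled FPKM in Foxo1ff and 79.1%, 69.0% and 80.04% in Foxo1dd.

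Of 8 co-receptors, 5 were tested, of which Ror2 alone rose (20%) and 4 fell (80%), beside 22.2% and 34.2% of all tested genes. Lrp5 and Lrp6, the co-receptors of the beta-catenin branch, went from 14.8 ± 1.19 to 6.20 ± 2.42 FPKM and from 18.5 ± 3.80 to 8.56 ± 2.28 FPKM (SD, n = 3 each), with log2 changes of -1.19 and -1.04 (limma adjusted p = 0.00237 and 0.00293). Of the remaining genes, named after their values were seen, Ryk was at 97.6 and 76.0 FPKM and Ptk7 at 76.3 and 55.5 FPKM. The count of falls was 2 under median-of-ratios scaling and quantile normalization, and also 2 without Foxo1ff replicate 2 or without Foxo1dd replicate 1. Lrp5 and Lrp6 stayed called in each of these settings.

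Lgr4 (chromosome 2, 109917647 to 110014257, plus strand), the R-spondin receptor, had 22.9, 20.9 and 27.0 FPKM in the Foxo1ff samples and 35.3, 25.6 and 33.5 in the Foxo1dd samples. Foxo1dd 2 lay below Foxo1ff 3, so the groups overlapped. The Lgr4 log2 change was 0.40 ± 0.16 with a 95% interval of 0.04 to 0.76 (SE, n = 3 per group, limma adjusted p = 0.0595). It passed the threshold under median-of-ratios scaling (0.54, limma adjusted p = 0.0124) and quantile normalization (0.55), with array weights (0.59), and without Foxo1dd replicate 2 (0.53) or Foxo1ff replicate 3 (0.49, limma adjusted p = 0.0463). Of its relatives, named after their values were seen, Lgr5 was at 30.1 ± 4.96 and 22.8 ± 9.41 FPKM (SD, n = 3 each) and was not called, and Lgr6 did not exceed 0.006 FPKM. The ubiquitin ligases that R-spondins inhibit differed in direction: Znrf3 fell from 10.7 ± 1.99 to 3.89 ± 0.312 FPKM and Rnf43 rose from 4.09 ± 0.511 to 8.29 ± 0.770 FPKM (SD, n = 3 each; limma adjusted p = 0.000227 and 0.00133). None of the 4 R-spondin genes reached the minimum.

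Axin2 (chromosome 11, 108920349 to 108950783, plus strand), the scaffold gene that beta-catenin induces, was low in both groups. It had 0.735, 0.505 and 0.443 FPKM in the Foxo1ff samples and 3.17, 1.46 and 1.14 in the Foxo1dd samples. Every Foxo1dd value lay above every Foxo1ff value, with Foxo1dd 1 far above the other 2. The mean was 3.43-fold higher (Axin2 log2 change 0.85 ± 0.27, SE, n = 3 per group, limma adjusted p = 0.0229). This call was lost without Foxo1ff replicate 2 (adjusted p = 0.0660) or Foxo1ff replicate 3 (0.0713). With a Foxo1ff mean of 0.561 FPKM, Axin2 reached the minimum only through the Foxo1dd samples. Without Foxo1dd replicate 1 the gene fell under the minimum and had no test.

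Other genes used as readouts of beta-catenin moved in both directions. Of 20 feedback and target genes, 15 were tested, 7 rose and 5 fell (median log2 change 0.19). These shares, 46.7% and 33.3%, stand beside 22.2% and 34.2% of all tested genes. Notum, a secreted enzyme that removes the WNT lipid, rose from 0.492 ± 0.0803 to 4.93 ± 0.859 FPKM (SD, n = 3 each; log2 change 1.98, limma adjusted p = 2.54e-05). Ccnd1 and Myc, which drive the cell cycle and answer to many pathways besides WNT, fell with log2 changes of -4.83 and -4.17 (limma adjusted p = 5.65e-07 and 1.97e-05). The remaining falls were Znrf3 and, named after their values were seen, Tcf7 and Ascl2. The remaining rises were Axin2, Rnf43, Apcdd1 and, also named afterwards, Nkd2, Sox9 and Ephb3. Axin2 and Notum reached the minimum only through Foxo1dd, and Tcf7 and Ascl2 only through Foxo1ff, so both shares depend in part on the filter. In GENCODE, exons of Notumos lie opposite 708 bases of Notum exons.

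**Figure D3:**
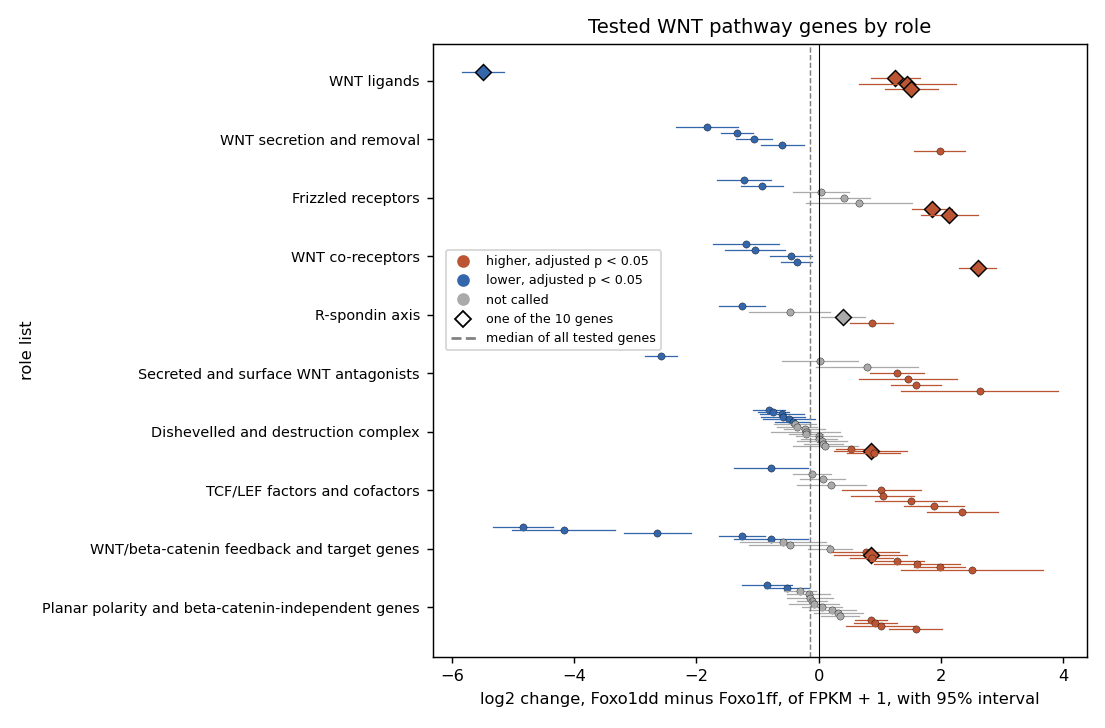
Log2 change (Foxo1dd minus Foxo1ff of FPKM + 1) of each tested gene of the 10 role lists, with its 95% interval from limma. Red is called higher, blue called lower and grey not called, diamonds are the 10 genes described here, and the dashed line is the median of all tested genes (-0.15). Red and blue points stand side by side in every list, and Wnt7b lies farthest to the left.

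Across 10 lists of WNT genes by role, 135 genes in all, 83 were tested, of which 27 rose (32.5%) and 25 fell (30.1%), beside 22.2% and 34.2% of all tested genes. Their median log2 change was 0.04, beside -0.15 for all genes. Without the 10 members, 20 of 74 rose (27.0%) and 24 fell (32.4%), shares near those of all genes.

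Of 5 tested genes of WNT secretion and removal 4 fell and 1, Notum, rose, beside 34.2% and 22.2% of all tested genes. Notum reached the minimum only through Foxo1dd. Porcn, the acyltransferase, had 89.4, 55.7 and 52.8 FPKM in the Foxo1ff samples and 15.2, 15.5 and 22.1 in the Foxo1dd samples, a 3.75-fold lower mean without overlap (log2 change -1.83 ± 0.22, SE, n = 3 per group, limma adjusted p = 0.000120). Tmed2, a cargo receptor of the early secretory pathway, fell from 147 ± 4.24 to 57.6 ± 5.89 FPKM (SD, n = 3 each; limma adjusted p = 1.66e-05). Named after their values were seen, Wls, the ligand carrier, fell from 127 ± 12.1 to 84.9 ± 17.6 FPKM and Tmed5, a relative of Tmed2, from a mean of 60.2 to 28.6 FPKM (SD, n = 3 each; limma adjusted p = 0.0107 and 0.000147).

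Of 19 secreted and surface antagonists, 7 were tested, 4 rose (57.1%) and 1 fell (14.3%), beside 22.2% and 34.2% of all tested genes. The gene that fell was Kremen1, a receptor for Dickkopf proteins, from 88.3 ± 7.69 to 13.9 ± 0.435 FPKM, a log2 change of -2.58 (SD, n = 3 each; limma adjusted p = 5.83e-07). Igfbp4, a binding protein of insulin-like growth factors that can also block Frizzleds, and Apcdd1, a membrane inhibitor, rose 3.40-fold and 3.17-fold (limma adjusted p = 7.57e-05 and 0.000479). Sfrp1, a decoy for WNT ligands named after its values were seen, was at 0.780, 0.506 and 0.498 FPKM in the Foxo1ff samples and 6.77, 27.7 and 3.283 in the Foxo1dd samples (limma adjusted p = 0.00355). Its Foxo1dd values spread widely, with Foxo1dd 2 highest. The remaining rise was Draxin, also named afterwards, with means of 0.0267 and 2.12 FPKM. The Dickkopf genes Dkk1 and Dkk4, named likewise, were listed at 0 in every sample. Sfrp1 and Draxin reached the minimum only through Foxo1dd, so the share of rises depends in part on the filter. Across the alternatives the count of rises in this list ran from 2 to 6 and that of falls from 1 to 2.

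Inside the cell, 3 of 19 tested Dishevelled and destruction complex genes rose and 6 fell (3 fell without Foxo1ff replicate 2), with small changes and a median of -0.21. The shares were 15.8% and 31.6%, beside 22.2% and 34.2% of all tested genes. Fbxw11, a substrate receptor that sends beta-catenin for degradation, and Dvl1, a Dishevelled adaptor, fell by 0.81 and 0.74 on the log2 scale (limma adjusted p = 0.000346 and 0.000487). Csnk1a1, the priming kinase of beta-catenin, rose by 0.53 (limma adjusted p = 0.00235). The other rises were Axin2, described above, and Gsk3b, named after its values were seen, a kinase that marks beta-catenin for destruction (15.9 and 30.6 FPKM). Ctnnb1, the beta-catenin gene, named after its values were seen, was abundant in both groups at 345 ± 25.3 and 271 ± 44.4 FPKM (SD, n = 3 each) and was not called (limma adjusted p = 0.0593).

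Of 9 tested TCF/LEF factors and cofactors, 5 rose (55.6%) and 1 fell (11.1%), beside 22.2% and 34.2% of all tested genes. Tcf7l1, a TCF factor that often represses targets, rose 5.34-fold from 1.66 to 8.87 FPKM, and the Groucho corepressors Tle1 and Tle2 rose from 3.96 to 13.7 and from 0.0863 to 4.75 FPKM (limma adjusted p = 9.58e-05, 0.00104 and 6.41e-05). Named after their values were seen, the coactivators Bcl9 and Bcl9l completed the rises, with log2 changes of 1.03 and 1.04. The gene that fell, named after its values were seen, was Tcf7, at 2.07 and 0.847 FPKM (limma adjusted p = 0.0324), and the count of falls was 0 with a pseudocount of 0.1, without a filter, at a minimum of 5 FPKM, and when Foxo1dd 2, Foxo1ff 2 or Foxo1ff 3 was left out. Tle2 reached the minimum only through Foxo1dd and Tcf7 only through Foxo1ff, so both shares depend in part on the filter.

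Of 15 tested planar polarity and beta-catenin-independent genes, 4 rose (26.7%) and 2 fell (13.3%), beside 22.2% and 34.2% of all tested genes. Their median log2 change was 0.05. Prickle1 and Vangl2, core polarity proteins, rose 4.78-fold and 2.02-fold, and Fuz, a planar polarity effector needed for cilia, 1.87-fold (limma adjusted p = 0.000124, 0.000965 and 0.000265). Exons of Ap2a1 and D7Bwg0826e lie opposite those of Fuz, so its value is uncertain. Named after their values were seen, Celsr2 was the fourth rise and Scrib and Intu were the falls, which numbered 1 at a minimum of 5 FPKM and when Foxo1dd 2, Foxo1ff 1 or Foxo1ff 2 was left out.

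Markers of the captured cells were read beside these results. Counts of called markers, here and above, stand beside 22.2% higher and 34.2% lower among all tested genes. All 15 uterine epithelium markers were tested, with a summed level of 3446 to 4548 FPKM in the Foxo1ff samples and 4662 to 5703 in the Foxo1dd samples, Cldn3 being the highest, and 5 were called higher and 3 lower (8 and 2 under median-of-ratios scaling). Smooth muscle markers summed to 3.55 to 6.62 FPKM in the Foxo1ff samples and 9.25 to 13.4 in the Foxo1dd samples. Of 4 tested, 2 were called higher and 0 lower. Those called were Synpo2, at 0.147 to 0.579 and 2.85 to 7.59 FPKM, and Myl9, with means of 0.603 and 1.81 FPKM. Each reached the minimum only through Foxo1dd. Myh11 was at or under 0.09 FPKM, and Myl9 and Myh11 were named after their values were seen. Endothelial markers summed to at most 6.74 FPKM in any sample. Egfl7, the only endothelial marker tested, was called lower, with means of 4.59 FPKM in Foxo1ff and 2.05 in Foxo1dd (limma adjusted p = 0.00506). Leukocyte markers summed to 50.0 to 96.9 FPKM in the Foxo1ff samples and 80.6 to 97.2 in the Foxo1dd samples. Of these sums Laptm5 made 2.73 to 5.78 FPKM in Foxo1ff and 53.2 to 70.7 FPKM in Foxo1dd. Of 9 tested leukocyte markers 6 were called lower and 2 higher, Laptm5 and, named after its values were seen, Cd68. Those called lower, also named afterwards, were Ptprc, Csf1r, C1qa, C1qb, Lyz2 and Tyrobp. Lyz2, the highest of them, had 54.2, 61.3 and 14.8 FPKM in the Foxo1ff samples and 7.98, 5.23 and 9.32 in the Foxo1dd samples. The part of these cells in the members' values was not tested.

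**Figure D4:**
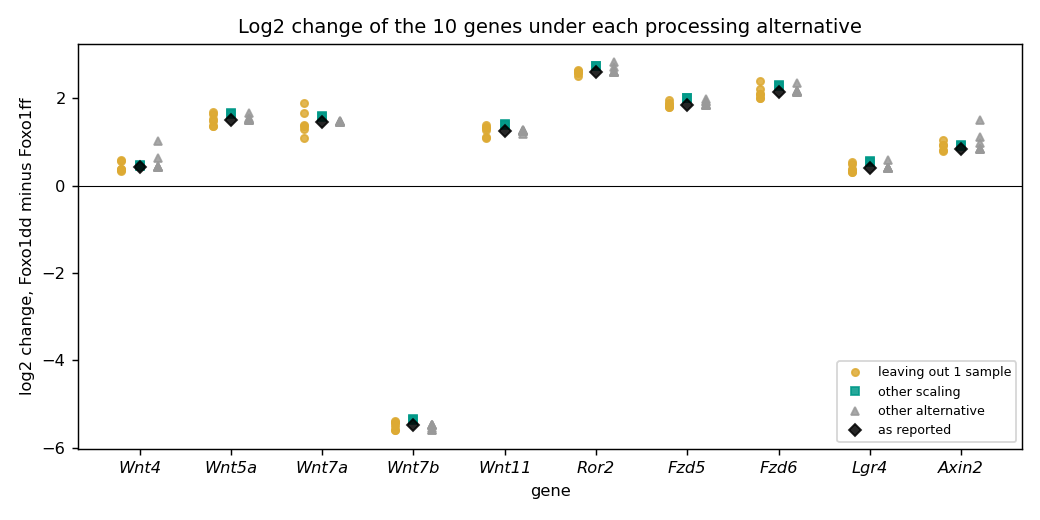
Log2 change of each of the 10 genes as reported (black diamonds) and under each processing alternative: leaving out 1 sample (yellow), another scaling between samples (green) and the other settings (grey). No point crosses 0, Wnt7b stays between -5.60 and -5.34, and the spread is widest for Wnt7a, from 1.10 to 1.88, and for the low genes Axin2 and Wnt4.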

How the data were processed

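RNA-seq of laser-captured luminal epithelium was deposited as FPKM, 1 value per gene and sample, computed by the authors. Per the submitters' processing notes, the genome build was mm10, and the tools listed, without saying which step each served, were STAR 2.5.2b, featureCounts 1.5.0-p1, edgeR 3.28.0 and DESeq2 1.12.4. The annotation, strand setting, gene lengths and any further scaling are not stated in these sources. If strand was not used, antisense reads count towards a gene: 6 of the 10 genes have opposite exons in GENCODE M21, which held 24423 of 24964 symbols and gave the positions.

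FPKM are not counts, so log2(FPKM + 1) was tested with limma 3.58.1 in R 4.3.3 (eBayes with trend), with genotype as the only term, for the 11427 genes at a minimum mean of 1 FPKM. On simulated data with 200 changed genes among 11272, 71 of 100 changes of 1 log2 and 94 of 100 of 2 log2 were called. The changed genes were drawn from those with higher mean levels and were far fewer than the genes called here. These shares therefore do not give the power of the tests above, least of all for low genes. Coding sequences were aligned with Biopython 1.88. Low FPKM of microRNA and snoRNA genes stepped in whole reads (within 0.05, for 88.5% to 100% of values), which puts 1 read at 0.0102 to 0.0136 FPKM for 1 kb. The step was chosen to make this share high, so the share is no check of the step. In Foxo1dd 2 it rests on 26 values. The 10 genes, the lists and the choice of named genes were made with earlier results of these data known. Named are the members, Foxo1 and Pgr, the 3 smallest p of each WNT list, each ligand or Frizzled at the minimum, the highest marker per list and called stroma markers, and other genes are marked as named after their values were seen. Alternatives were 2 pseudocounts, 2 filters, 2 scalings, eBayes options, array weights, the replicate block and leaving out each sample.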

Additional observations from a re-analysis of the deposited data

How the results depend on the processing

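The log2 changes of the 10 genes, of Foxo1 and of Pgr kept their direction in each of the up to 16 alternatives run for each. Wnt5a, Wnt7a, Wnt7b, Wnt11, Ror2, Fzd5 and Fzd6 also kept their calls, with adjusted p of at most 0.0347 (Wnt7a). Axin2 had no test at a minimum of 5 FPKM or without Foxo1dd replicate 1, had 1.51 with a pseudocount of 0.1 against 0.85, and ran from 0.79 to 1.04 with 1 sample left out and lost its call without Foxo1ff replicate 2 or 3. Lgr4 ran from 0.31 to 0.53 with 1 sample left out, and was called under median-of-ratios scaling (0.54), quantile normalization (0.55) and array weights (0.59). Wnt4, not tested, had 1.02 with a pseudocount of 0.1 against 0.43. Fzd8 ran from -0.13 to 0.16 with 1 sample left out, changing sign when Foxo1dd 1 (-0.13), Foxo1ff 3 (-0.03) or Foxo1ff 2 (-0.01) was the one. The bioreplicate numbers did not pair the samples: same-numbered samples' deviations correlated at 0.123, 0.107 and -0.133 across genes. With the replicate block, 2417 genes were higher and 3724 lower, and Lgr4 just passed the threshold at 0.40. All genes called ranged from 1962 to 3195 higher and 3050 to 4424 lower, and the share of calls that were higher went from 39.3% to 49.1% under median-of-ratios scaling. Stroma markers called higher numbered 1 at a minimum of 5 FPKM and 0 to 5 with 1 sample left out, and 1 was lower without a filter. The Fzd6 share and its alternatives were added after the data had been seen. Groups of 3 limit precision.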

Other observations

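Several WNT genes that lay below the minimum for testing differed between the groups without overlap, and they are given as values chosen after they were seen. The ligand Wnt9a was at 1.01, 1.10 and 1.09 FPKM in the Foxo1ff samples and at 0.195, 0 and 0.206 in the Foxo1dd samples. Rspo4, an R-spondin, was at 1.21, 1.14 and 0.591 FPKM in Foxo1ff and was listed at 0 in all 3 Foxo1dd samples. Rspo3 was higher instead, at 0.084, 0.017 and 0.363 FPKM in the Foxo1ff samples and 0.757, 0.722 and 1.42 in the Foxo1dd samples. Fzd9 was at 0.425 to 0.630 FPKM in the Foxo1ff samples and at 0 to 0.049 in the Foxo1dd samples. Their levels are small beside those of Wnt11 or Fzd6. Without a filter on low values, limma called 2 ligands, 3 Frizzleds and 2 R-spondin axis genes lower, against 1, 2 and 1 at the minimum of 1 FPKM. Among all genes, 4151 of 17891 were called lower without the filter and 3912 of 11427 at that minimum.

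Among target genes named after their values were seen, Ascl2, a transcription factor of stem and trophoblast cells, was at 9.68 ± 2.24 and 0.735 ± 0.453 FPKM, and Sox9 at 1.90 ± 1.85 and 15.1 ± 8.35 FPKM (SD, n = 3 each), both called (limma adjusted p = 2.55e-05 and 0.00271).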
